A study of Mus musculus with 11 samples.

Results

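The lectins described here are the 7 C-type lectin genes Clec9a, Clec12a, Clec1a, Clec7a, Clec2d, Clec1b and Clec12b of the dectin-1 cluster on mouse chromosome 6. They were chosen by gene name, and each was read from its single probe set naming only that gene. All 7 were measured, among 19938 genes on the arrays. The arrays came from classical dendritic cells (cDCs) that had been sorted by flow cytometry from spleen: control mice gave CD24+ cDCs (3 arrays) and CD172a+ cDCs (4 arrays), and mice labelled Zeb2-deficient gave CD172a+ cDCs (4 arrays). All mice were C57BL/6 and carried floxed Zeb2 alleles, Zeb2(fl/fl). The mice labelled Zeb2-deficient also carried a CD11c-Cre transgene, which directs Cre to cells using the CD11c promoter, and the controls carried no Cre. The labels give no ages and do not say that replicates were separate animals, so the p-values speak only of the spread among these samples, and that spread may be technical.

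The lectins of this cluster are small membrane receptors with a single sugar-recognition-like domain, and many of them bind proteins or crystals instead of sugars. Some carry a short activating motif, the hemi-ITAM, that recruits the kinase Syk; others carry an inhibitory motif that recruits phosphatases. In mouse spleen the product of Clec9a, DNGR-1, is known as a marker of the cDC1 subset, which CD24+ cDCs represent, and the product of Clec7a, dectin-1, as a beta-glucan receptor of myeloid cells and of cDC2.

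By RefSeq annotation (assembly GRCm38.p6) the 7 lectins lay within a run of 12 genes, in the order Clec2d, Gm38906, 2310001H17Rik, Cd69, Clec2m, Clec12a, Clec12b, Clec1b, Clec9a, Clec1a, Gm45969 and Clec7a. From Clec12a to Clec7a, 6 of 7 genes were members, and the remaining gene was the long non-coding RNA Gm45969. The annotated span of Clec12b, which runs on the minus strand, overlapped 3 other members, Clec9a, Clec1a and Clec1b.

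The promoter windows of the 3 lectins that differed most clearly in level or direction between the subsets, and that had an entry, are shown so that their start-site regions can be set beside their expression. Windows of 300 bases, from 250 before to 50 after the annotated start, were taken from RefSeq (GRCm38.p6) for 6 of 7 members; Clec1a had no entry. The Clec9a window is chr6:129408612-129408911 on the plus strand, the Clec12a window is chr6:129349994-129350293 on the plus strand, and the Clec7a window is chr6:129472730-129473029 on the minus strand. Each is written 5′ to 3′ in the direction of the gene, with motif matches on either strand in capitals.
Clec9a promoter: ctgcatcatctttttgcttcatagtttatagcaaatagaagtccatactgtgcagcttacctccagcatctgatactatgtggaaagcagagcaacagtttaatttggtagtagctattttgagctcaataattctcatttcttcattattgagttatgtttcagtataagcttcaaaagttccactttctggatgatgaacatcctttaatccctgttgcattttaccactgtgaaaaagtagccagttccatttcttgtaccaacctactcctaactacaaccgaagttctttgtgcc
Clec12a promoter: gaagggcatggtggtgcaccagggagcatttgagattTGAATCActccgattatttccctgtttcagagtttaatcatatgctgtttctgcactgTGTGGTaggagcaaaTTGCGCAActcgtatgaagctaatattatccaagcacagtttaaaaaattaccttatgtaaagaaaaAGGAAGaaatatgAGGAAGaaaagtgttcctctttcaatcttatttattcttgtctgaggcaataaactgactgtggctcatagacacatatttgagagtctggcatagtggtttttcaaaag
Clec7a promoter: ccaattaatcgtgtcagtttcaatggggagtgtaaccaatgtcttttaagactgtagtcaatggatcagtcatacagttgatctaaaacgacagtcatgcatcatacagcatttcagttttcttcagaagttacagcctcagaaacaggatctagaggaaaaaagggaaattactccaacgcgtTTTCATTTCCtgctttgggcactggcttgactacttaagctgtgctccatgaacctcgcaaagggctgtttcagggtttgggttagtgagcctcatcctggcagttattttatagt

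The 7 motifs searched on both strands were CACCTG (the E-box bound by Zeb factors), GGAA and GAAA with 2 bases of any kind between them (a composite of PU.1 and IRF sites), GAAA and GAAA spaced the same way (an interferon response element), TGANTCA (AP-1), AGGAAG (ETS), TGTGGT (RUNX) and TTGCNNAA (C/EBP). No match overlapped another. The Clec7a window held 1 match, the PU.1 and IRF composite read on the opposite strand as TTTCATTTCC, starting at position -66 from the annotated start. Another Clec7a window, chr6:129472736-129473035, has a different annotated start and held the same match at -60. These letters occurred in 2.79% of the 27025 promoter windows. The Clec12a window held 5 matches: AP-1 (TGAATCA) at -213, RUNX at -155, C/EBP (TTGCGCAA) at -140, and ETS at -73 and -60. The shares of all windows with these motifs were 7.93% for AP-1, 16.9% for RUNX, 10.8% for C/EBP and 35.1% for ETS. The Clec9a window held none of the 7 motifs, nor did the windows of Clec12b and Clec1b, and the Clec2d window held 1 interferon response element (GAAAGAGAAA, at -189), found in 3.49% of windows. CACCTG, present in 20% of windows, was in none of the 6. A match describes letters in the window and not a bound site, and a missing match says only that these letters are not there.

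The arrays carry RMA values on a log2 scale, on which a difference of 1 is a doubling. Array medians lay between 5.454 and 5.521, and precision is limited by how many arrays there were. The arrays also fell into 2 sets along the second principal component (34.2% of the variance), which is a split found in the data and not a labelled batch. The first set held CD24+ replicate 1 and replicates 1 and 2 of both CD172a+ groups (5 arrays), and the second held the remaining 6. Cell markers followed the sort: the mean level over 14 cDC1 marker genes was 9.59 to 10.30 on CD24+ arrays, 6.35 to 6.48 on control CD172a+ arrays and 6.57 to 6.68 on the arrays labelled Zeb2-deficient. Over 13 cDC2 marker genes it was 5.02 to 5.20, 7.23 to 7.94 and 7.26 to 7.99 in the same order. Zeb2, the zinc-finger repressor targeted in the study, read 8.23, 8.23, 8.26 and 8.61 in control CD172a+ cDCs and 8.52, 8.32, 9.07 and 9.24 in those labelled Zeb2-deficient (limma adjusted p = 0.998), so its probe set showed no loss. The sources used here do not say whether that probe set lies in the deleted part, and its values therefore check nothing about the allele. The name labelled Zeb2-deficient is kept throughout.

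The first comparison asks how the lectins differ between the main cDC subsets of control spleen. Clec9a, Clec12a and Clec1a were higher in CD24+ cDCs, by 29.1, 5.11 and 4.34 times, and Clec7a was 4.79 times lower. Clec2d, Clec1b and Clec12b did not pass the test. These 4 of 7 lectins called (limma, adjusted p below 0.05, Benjamini-Hochberg over all genes) stand beside 6.41% of all 19938 genes, and the 3 higher and 1 lower beside 3.25% and 3.16%. The groups did not overlap for 4 of 7 lectins and for 14.6% of all genes, and the median difference over the 7 lectins was 0.24, against -0.02 over all genes. The exact permutation test, two-sided, gave each of the 4 called lectins p = 0.0571, the smallest it can give for 3 against 4 arrays (0.12 after Benjamini-Hochberg adjustment over the 21 lectin comparisons). In sorted bulk cells such as these, fewer cells of a type and less RNA per cell cannot be told apart.

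Clec9a encodes DNGR-1, which binds actin filaments exposed by dead cells and signals through Syk. Its level was 11.70, 11.75 and 11.41 on the CD24+ arrays, 6.52, 6.17, 6.89 and 7.44 on the control CD172a+ arrays, and 6.03, 5.99, 6.03 and 6.08 on the arrays labelled Zeb2-deficient. The CD24+ arrays were all far above the others, and the CD172a+ control arrays spread more (SD 0.55, n = 4) than either other group (SD 0.18, n = 3, and 0.04, n = 4). CD24+ cDCs exceeded control CD172a+ cDCs by 4.86 (SE 0.238, 95% interval 4.34 to 5.39, limma adjusted p = 4.86e-07). Within the first array set the difference was 5.35 and within the second it was 4.41. The first set held 1 CD24+ array, so every first-set difference involving CD24+ cDCs rests on that array.

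Clec12a encodes an inhibitory receptor that recognises uric acid crystals. Its level was 9.91, 9.83 and 10.09 in CD24+ cDCs, 7.41, 7.45, 7.42 and 8.10 in control CD172a+ cDCs, and 7.43, 7.30, 7.89 and 8.21 in those labelled Zeb2-deficient. The CD24+ arrays again lay above all others, while both CD172a+ groups covered almost the same range. The subset difference was 2.35 (SE 0.232, interval 1.84 to 2.86, limma adjusted p = 8.98e-05), with 2.49 and 2.20 within the first and second set.

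Clec1a encodes a receptor for melanin of fungal spores. Its level was 7.15, 7.09 and 6.88 in CD24+ cDCs, 4.52, 4.64, 5.27 and 5.26 in control CD172a+ cDCs, and 4.83, 4.66, 4.78 and 5.0 in those labelled Zeb2-deficient. CD24+ arrays did not overlap either CD172a+ group. The subset difference was 2.12 (SE 0.19, interval 1.70 to 2.54, limma adjusted p = 4.57e-05), and it was 2.57 within the first set and 1.72 within the second.

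Clec7a encodes dectin-1, the activating receptor for fungal beta-glucan. Its level ran the other way, at 6.08, 7.62 and 7.85 in CD24+ cDCs, 9.62, 9.28, 9.55 and 9.32 in control CD172a+ cDCs, and 8.59, 8.61, 8.82 and 9.15 in those labelled Zeb2-deficient. The 3 groups did not overlap, in the order control CD172a+, labelled Zeb2-deficient, CD24+. CD24+ replicate 1 was more than 1 log2 unit below its fellows. It was the only CD24+ array of the first set, so the set and that array cannot be told apart. CD24+ cDCs were lower by a log2 difference of -2.26 (SE 0.346, interval -3.02 to -1.50, limma adjusted p = 0.00198), which was -3.37 within the first array set, -1.70 within the second and -1.71 without CD24+ replicate 1.

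Clec2d encodes a surface ligand of the natural killer cell receptor NKR-P1B. Its level was 9.69, 8.73 and 8.76 in CD24+ cDCs, 9.52, 9.30, 8.30 and 8.13 in control CD172a+ cDCs, and 9.75, 9.72, 8.14 and 8.20 in those labelled Zeb2-deficient. The groups overlapped, and in every group each array of the first set lay above each array of the second. The second set was lower by a log2 difference of -0.95, -1.19 and -1.57 in the 3 groups in that order. Between the subsets Clec2d differed by 0.24 (interval -0.85 to 1.34, limma adjusted p = 0.918). With the array set as a block the difference was 0.46 (limma adjusted p = 0.0281; 0.0281 to 0.999 over all alternatives).

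Clec1b encodes CLEC-2, the platelet receptor for podoplanin, which also carries a hemi-ITAM. Its level was 4.33, 4.88 and 4.95 in CD24+ cDCs, 4.61, 4.79, 5.38 and 5.95 in control CD172a+ cDCs, and 4.09, 4.75, 5.43 and 5.33 in those labelled Zeb2-deficient, with the second-set arrays above the first-set arrays in each group. The subset difference was -0.46 (interval -1.28 to 0.36, limma adjusted p = 0.688) and became -0.61 with the array set as a block (limma adjusted p = 0.0306; 0.0306 to 0.935 over all alternatives). The mean over 10 platelet and megakaryocyte markers was 5.20 to 5.55 over all 11 arrays.

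Clec12b encodes an inhibitory receptor that recruits phosphatases. Its level was 4.21, 4.83 and 4.78 in CD24+ cDCs, 4.50, 4.60, 4.55 and 4.53 in control CD172a+ cDCs, and 4.37, 4.27, 4.14 and 4.83 in those labelled Zeb2-deficient, so that the CD24+ arrays lay on both sides of the control CD172a+ arrays. The subset difference was 0.06 (interval -0.33 to 0.46, limma adjusted p = 0.942). Clec12b and Clec1b were the members that a filter at the median gene level would have left out. With the array set as a block, 6 of 7 lectins passed (all but Clec12b), beside 15.4% of all genes.

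**Figure D1:**
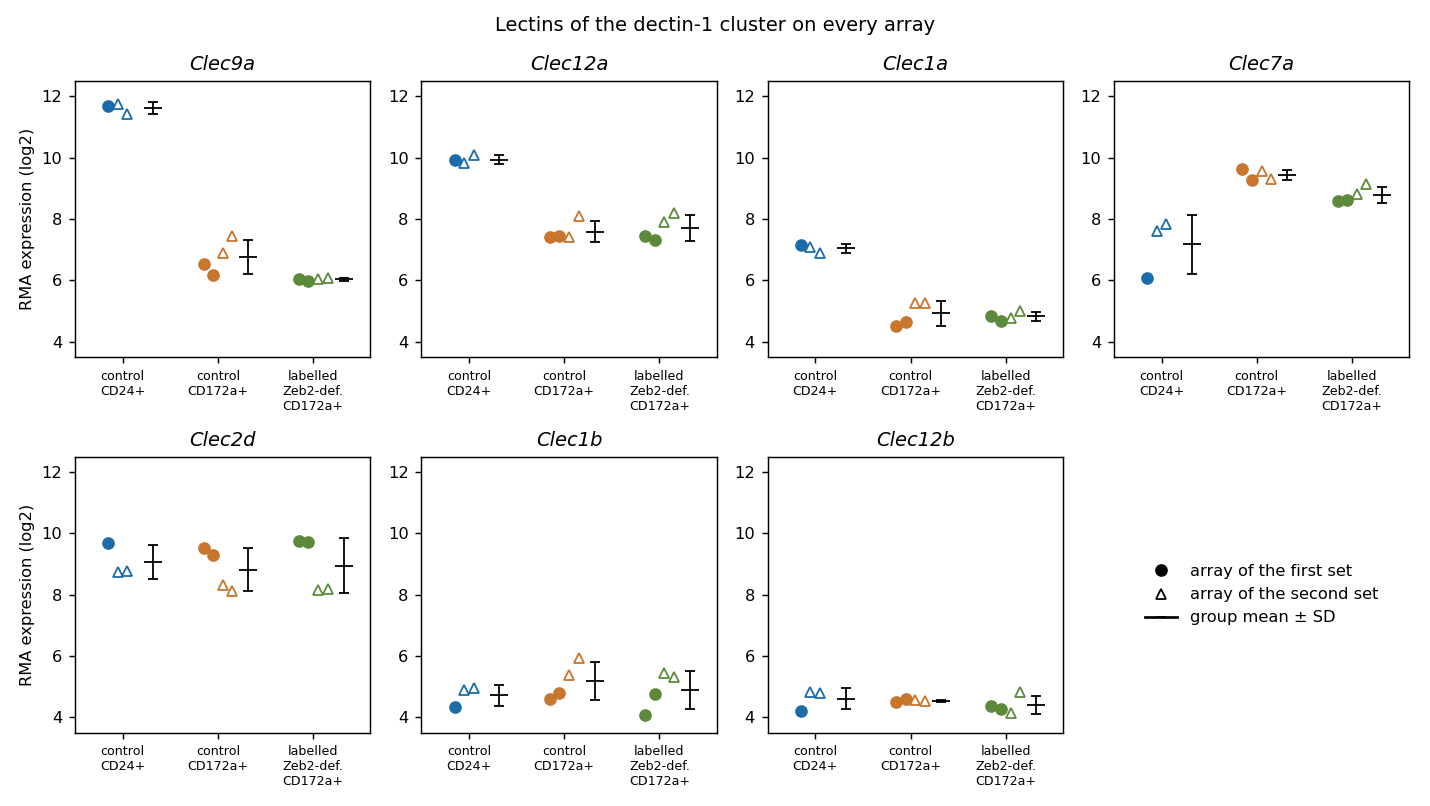
RMA expression (log2 scale, vertical axis) of each of the 7 lectins on every array, by group (horizontal axis); filled circles are arrays of the first set, open triangles those of the second, and bars the group mean ± SD (n = 3 CD24+, 4 and 4 CD172a+). Clec9a sits at 11.41 to 11.75 in CD24+ cDCs and at or below 7.44 elsewhere, Clec7a is lowest in CD24+ cDCs, and the Clec2d points separate by array set.

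Read along the chromosome from Clec2d, which did not pass, Clec12a was higher in CD24+ cDCs, the following Clec12b and Clec1b did not pass, Clec9a and Clec1a were higher, and Clec7a at the end of the cluster was lower. Of the 8 measured neighbours, 2 non-members inside the run and 3 on each side, 0 were higher, 2 were lower and 6 did not pass, beside 3.25% higher and 3.16% lower among all genes. The neighbours that were lower in CD24+ cDCs were Klrb1f, an activating NKR-P1 receptor (-2.70, limma adjusted p = 0.00223), and the activation marker Cd69 (-1.96, limma adjusted p = 0.0482). Olr1, which encodes the oxidised lipoprotein receptor LOX-1 and lies next to Clec7a, read 4.36, 5.42 and 5.69 in CD24+ cDCs and 4.42, 4.29, 4.98 and 5.17 in control CD172a+ cDCs, a difference of 0.44 (limma adjusted p = 0.651).

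**Figure D2:**
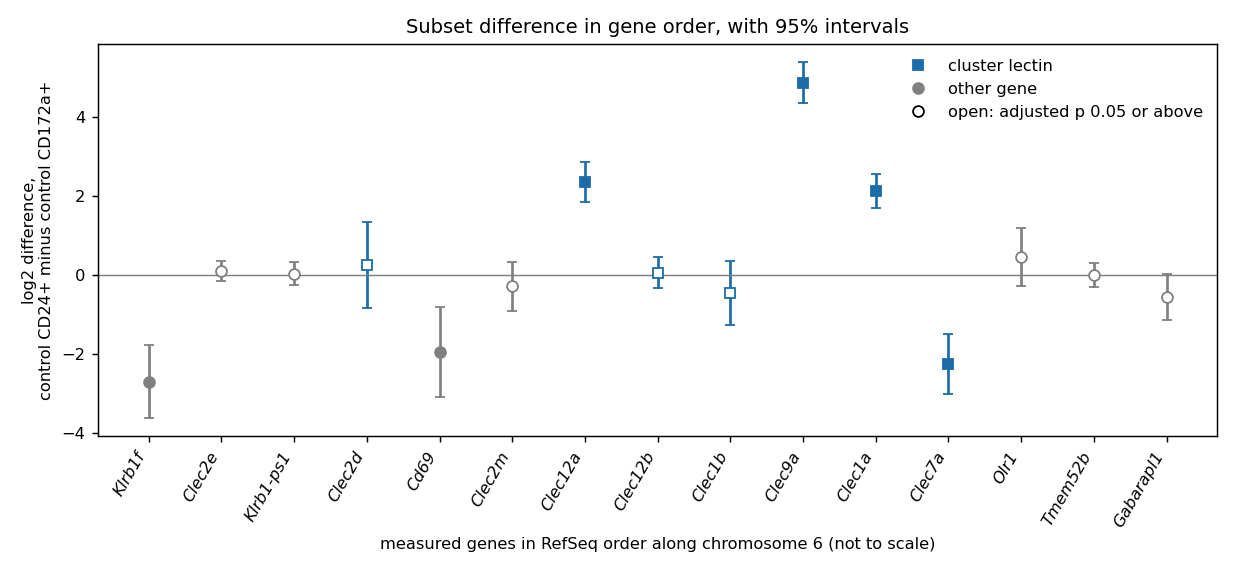
Log2 difference of control CD24+ minus control CD172a+ cDCs (vertical axis, with 95% intervals) for the measured genes in RefSeq order (horizontal axis, not to scale); squares are the 7 lectins, circles other genes, and filled symbols have an adjusted p below 0.05. The highest value is Clec9a at 4.86, and Clec7a at -2.26 lies past Clec1a as the last of the 7 lectins in this order.

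The second comparison asks whether the lectins differ between CD172a+ cDCs labelled Zeb2-deficient and control CD172a+ cDCs. Of the 7 lectins, 0 passed the test (limma, adjusted p below 0.05), beside 0.0502% of all genes. At an unadjusted p below 0.05 in limma there was 1 of 7, Clec9a, beside 3.88% of all genes. With same-numbered arrays as pairs, the count was also 0 of 7, while the count over all genes was 26 in place of 10. The groups did not overlap for Clec9a and Clec7a, 2 of 7 lectins, beside 2.1% of all genes. The median difference was -0.14 over the lectins and 0.01 over all genes.

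For Clec9a all 4 arrays labelled Zeb2-deficient, at 5.99 to 6.08, lay below the lowest control CD172a+ array at 6.17. The difference was -0.72 (SE 0.22, interval -1.21 to -0.24, limma adjusted p = 0.998, or 0.207 when blocked by array set, and 0.207 to 1 over all alternatives). The exact permutation test over the 8 arrays, two-sided, gave p = 0.0286, the smallest it can give for 4 against 4, and 0.12 after Benjamini-Hochberg adjustment over the 21 lectin comparisons. Same-numbered arrays differed by -0.49, -0.17, -0.86 and -1.36, lower in 4 of 4 pairs, and the set values were -0.33 and -1.11. Because the groups did not overlap, any pairing would give 4 of 4 lower, and the permutation p had to be its smallest. Without control CD172a+ replicate 4, the highest of its group, the difference was -0.49. Clec9a was not counted among the 14 cDC1 markers. Their mean level was 6.57 to 6.68 on the arrays labelled Zeb2-deficient and 6.35 to 6.48 on control CD172a+ arrays. Of these 14 genes 0 passed, and the median difference was 0.25, against 0.01 over all genes. Single markers differed in direction, as with Cadm1 (-0.37) and Xcr1 (0.22).

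For Clec7a the arrays labelled Zeb2-deficient, at 8.59 to 9.15, lay below the control CD172a+ arrays at 9.28 to 9.62. The difference was -0.65 (SE 0.321, interval -1.36 to 0.06, limma adjusted p = 0.998), and the exact permutation p was 0.0286 (0.12 after adjustment over the 21 lectin comparisons). Same-numbered arrays differed by -1.03, -0.67, -0.73 and -0.17, again lower in 4 of 4 pairs. Both the permutation p and this count again follow from the lack of overlap. Within the first and second array set the difference was -0.85 and -0.45. Over 10 monocyte markers the mean level was 7.38 to 7.88 on control CD172a+ arrays and 6.75 to 7.38 on the arrays labelled Zeb2-deficient, and 1 of the 10 genes passed as lower. Over 9 B cell markers it was 4.96 to 5.28 and 5.42 to 5.79, without overlap, and 1 of the 9 genes passed as higher. Over 10 plasmacytoid DC markers it was 6.51 to 6.80 and 6.78 to 7.12, and 1 of the 10 passed as higher. The median differences were smaller, at -0.13 for monocyte, 0.07 for B cell and 0.08 for plasmacytoid DC markers, against 0.01 over all genes. The part of these cell markers in the Clec7a and Clec9a differences was not tested.

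The other 5 lectins gave small differences with intervals on both sides of 0. Clec12a differed by 0.11 (interval -0.36 to 0.59), Clec1a by -0.10 (-0.49 to 0.28) and Clec12b by -0.14 (-0.51 to 0.23). Clec1b differed by -0.28 (-1.04 to 0.48) and Clec2d by 0.14 (-0.88 to 1.15). The limma adjusted p of each was 0.998. The intervals bound the differences and do not show that the levels were equal; that of Clec2d was the widest, its arrays being split by set. Of the 8 neighbouring genes 0 passed.

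**Figure D3:**
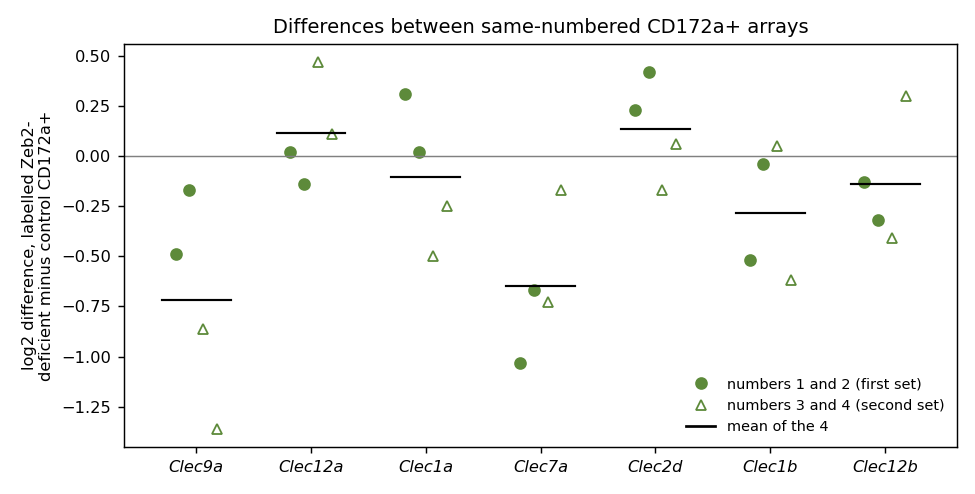
Log2 difference between same-numbered arrays, labelled Zeb2-deficient minus control CD172a+ (vertical axis), for each lectin; circles are numbers 1 and 2, triangles numbers 3 and 4, and bars the mean of 4. All 4 points lie below 0 for Clec9a and Clec7a, whose groups did not overlap, so that any pairing would place them there. For the other 5 lectins the points lie on both sides of 0.

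The third comparison sets the labelled Zeb2-deficient CD172a+ arrays beside the CD24+ arrays of control mice. It shares its CD24+ arrays with the first comparison and its CD172a+ arrays with the second, so it is not independent of them. Clec9a, Clec12a and Clec1a were lower than in CD24+ cDCs, and Clec7a was higher. These were 4 of 7 lectins (limma, adjusted p below 0.05), beside 7.17% of all genes (3.92% lower and 3.25% higher), and the groups did not overlap for 4 of 7, beside 17.9% of all genes. Clec9a was 48 times lower (log2 difference -5.58, limma adjusted p = 1.73e-07), Clec12a 4.72 times (-2.24, limma adjusted p = 0.000122) and Clec1a 4.67 times (-2.22, limma adjusted p = 3.14e-05).

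Clec7a was 3.05 times higher than in CD24+ cDCs (1.61, SE 0.346, limma adjusted p = 0.016). This call was lost when only these groups entered the fit (limma adjusted p = 0.0621; 0.000678 to 0.0673 over all alternatives). The difference was 2.52 within the first array set, 1.25 within the second and 1.06 without CD24+ replicate 1. For Clec7a the labelled Zeb2-deficient arrays thus lay between the other groups, 0.65 below control CD172a+ cDCs on the log2 scale (not called) and 1.61 above CD24+ cDCs (called). Clec2d, Clec1b and Clec12b differed by -0.11, 0.18 and -0.21 and did not pass. Within the second array set alone Clec2d was lower by a log2 difference of -0.58 (limma adjusted p = 0.0263; 0.0263 to 0.993 over all alternatives), while within the first set it differed by 0.04.

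**Figure D4:**
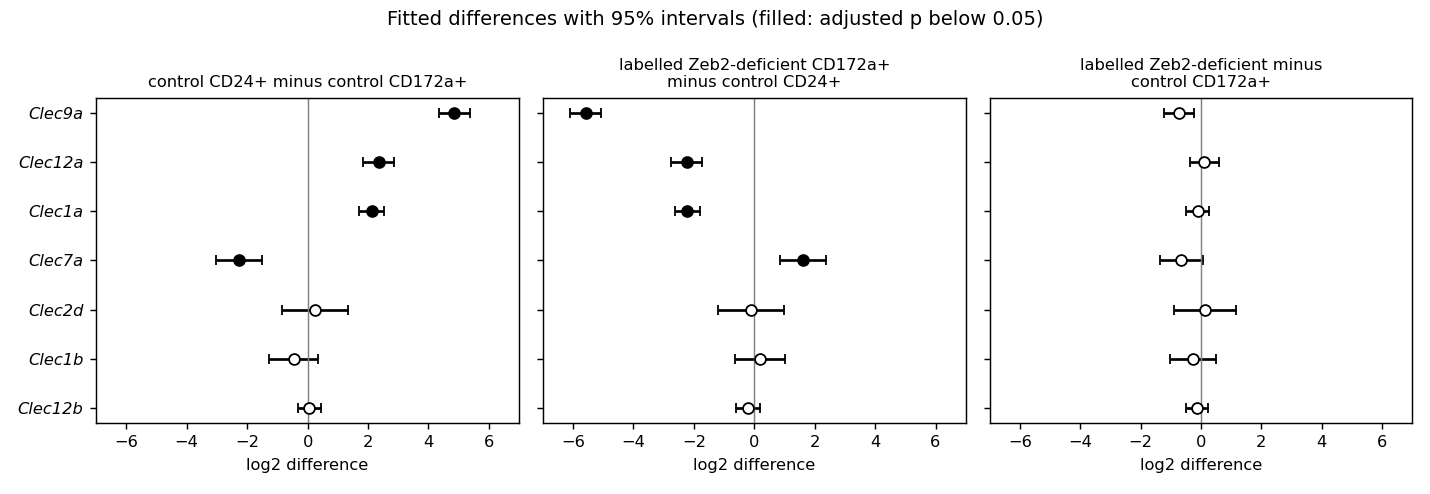
Fitted log2 differences (horizontal axis) with 95% intervals for the 7 lectins (rows) in the 3 comparisons (panels), from 1 limma fit over 11 arrays; filled points have an adjusted p below 0.05. Clec9a, Clec12a, Clec1a and Clec7a are filled in both comparisons with CD24+ cDCs, and no point is filled in the comparison of the CD172a+ groups.

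The gene lists that follow stand beside the shares of all genes in the first comparison, control CD24+ against control CD172a+ cDCs. These were 6.41% called, 3.25% higher and 3.16% lower, or 15.4% called with the array set as a block. The median difference over all genes was -0.02.

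The hemi-ITAM lectins recruit Syk, and dectin-1 acts further through the adaptor Card9 and NF-kappaB. Of 28 measured genes of this route, 1 was higher and 4 were lower in CD24+ than in control CD172a+ cDCs, with a median difference of -0.16; 9 of 28 were called with the array set as a block. Syk read 7.24, 7.48 and 7.62 in CD24+ cDCs, 9.35, 9.0, 9.23 and 8.89 in control CD172a+ cDCs and 8.89, 8.85, 8.83 and 8.96 in those labelled Zeb2-deficient. CD24+ arrays, in which Clec9a was high, had the lower Syk level, without overlap (-1.68, limma adjusted p = 1.27e-05). The Src family kinase Fgr (-2.64, limma adjusted p = 0.0046) and the exchange factor Vav2 (-0.89, limma adjusted p = 0.0098) were lower too, while its relative Vav3 was higher (0.89, limma adjusted p = 0.00206). Card9 differed by -0.23 (interval -0.51 to 0.05, limma adjusted p = 0.459).

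The inhibitory lectins recruit SHP-1, encoded by Ptpn6, and related phosphatases. The list for inhibitory signalling held 10 genes, not all of them phosphatase genes. Of these, 0 were higher and 1 was lower in CD24+ cDCs, the leukocyte phosphatase CD45 gene Ptprc (-0.82, limma adjusted p = 0.00691). That is 1 of 10, against 6.41% of all genes; blocked by array set it was 4 of 10, against 15.4%. Ptpn6 read 9.06, 8.40 and 8.28 in CD24+ cDCs and 9.95, 10.13, 8.74 and 8.62 in control CD172a+ cDCs. It was lower on second-set arrays in both groups, and differed between the subsets by -0.78 (interval -1.91 to 0.35, limma adjusted p = 0.575) or, with the array set as a block, by -0.57 (limma adjusted p = 0.0248).

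Of 24 genes listed as responding to dectin-1 or acting with it, 2 were higher and 2 lower in CD24+ cDCs (11 of 24 called with the set block). Ptgs2, the prostaglandin synthase, was 16.7 times lower (-4.06, limma adjusted p = 2.55e-05), as Clec7a was. It read 6.86, 8.26 and 8.65 in CD24+ cDCs and 12.23, 12.22, 11.90 and 11.61 in control CD172a+ cDCs. Tlr2, which acts with dectin-1, was also lower (-0.62, limma adjusted p = 0.0282), and the chemokine genes Ccl22 (2.15, limma adjusted p = 0.0342) and Ccl17 (0.70, limma adjusted p = 0.0398) were higher. CD24+ replicate 1, the only CD24+ array of the first set, read lowest of its group for Ptgs2 and Clec7a. It also read lowest for Ccl22 and Ccl17, which ran the other way between the subsets, but not for Tlr2. The labels name no stimulation of the cells.

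Of 19 genes of dead-cell uptake and antigen handling, the process in which DNGR-1 acts, 4 were higher and 2 lower in CD24+ cDCs (8 of 19 called with the set block). Those higher were Rab7b (5.12, limma adjusted p = 2.74e-08), which encodes an endosomal GTPase, the scavenger receptor Cd36 (4.96, limma adjusted p = 8.24e-07), the GTPase gene Rab43 (0.93, limma adjusted p = 0.00107) and Wdfy4 (0.86, limma adjusted p = 0.00436), which is needed for cross-presentation. Cybb, the catalytic NADPH oxidase subunit, was 14.3 times lower (-3.84, limma adjusted p = 9e-05).

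Of 14 ligands and partners of these receptors, 2 were higher and 3 lower in CD24+ cDCs (6 of 14 called with the set block). Fcer1g, the ITAM adaptor gene used by related lectins, read 9.28, 8.57 and 9.45 in CD24+ cDCs and 11.93, 12.05, 11.36 and 11.63 in control CD172a+ cDCs (-2.64, limma adjusted p = 2.08e-05). Lgals3 (1.42, limma adjusted p = 6.31e-05) and Anxa1 (1.76, limma adjusted p = 0.0252), a galectin and an annexin gene, were higher. Klrb1b, which encodes the receptor for the Clec2d product, read 6.25, 7.59 and 7.93 in CD24+ cDCs, 6.01, 5.46, 7.15 and 7.57 in control CD172a+ cDCs and 5.11, 5.25, 6.05 and 6.38 in those labelled Zeb2-deficient. Within each group it was higher on second-set arrays, where Clec2d was lower, and its subset difference was 0.71 (limma adjusted p = 0.67). Pdpn, the ligand of CLEC-2, differed by -0.22 (limma adjusted p = 0.452).

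**Figure D5:**
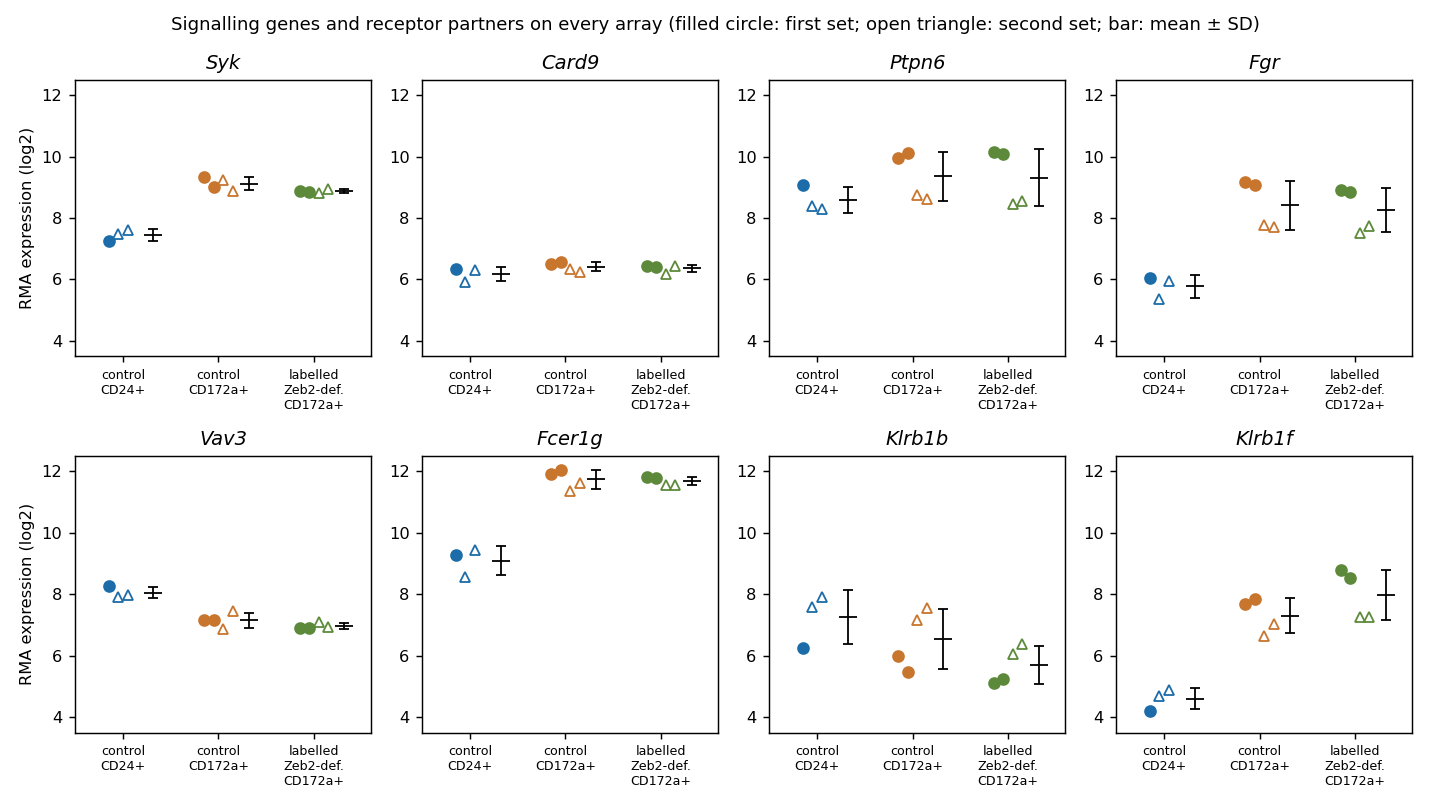
RMA expression (log2 scale, vertical axis) of 8 signalling genes and receptor partners on every array, by group; filled circles are first-set arrays, open triangles second-set arrays, and bars the mean ± SD. Syk, Fgr, Fcer1g and Klrb1f are lower and Vav3 is higher in CD24+ cDCs, whereas Card9, Ptpn6 and Klrb1b overlap between the subsets.

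Of 24 measured genes of the flanking natural killer receptor and Clec2 families, 0 were higher and 4 were lower in CD24+ cDCs (6 of 24 called with the set block). Besides Klrb1f and Cd69 these were the natural killer receptor genes Klri2 (-2.30, limma adjusted p = 1.14e-05) and Klrd1 (-2.91, limma adjusted p = 8.91e-05). In the DCIR and dectin-2 lectin cluster, the other myeloid lectin cluster of this chromosome, 1 of 9 measured genes was higher and 7 were lower, with a median difference of -3.23 against -0.02 over all genes. The gene that was higher was Clec4b2 (3.17, limma adjusted p = 1.83e-07), and examples of those lower were Clec4a4 (-5.24, limma adjusted p = 9.02e-07) and Clec4a1 (-5.10, limma adjusted p = 7.43e-07). In the dectin-1 cluster, by comparison, 3 of 7 were higher and 1 was lower; the difference between the clusters was not tested.

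In each of these lists 0 genes passed between the CD172a+ groups (limma, adjusted p below 0.05). At an unadjusted p below 0.05 in limma, 3.88% of all genes passed. Beside that stood 1 of 28 signalling genes, 0 of 10 inhibitory signalling genes and 1 of 24 dectin-1 list genes. The dead-cell handling list had 1 of 19 and the ligands and partners 0 of 14. The flanking genes had 2 of 24 and the DCIR and dectin-2 cluster 1 of 9. Cd69, which lies inside the lectin run, read 9.04, 8.87, 6.66 and 7.41 in control CD172a+ cDCs and 9.65, 9.62, 8.76 and 8.96 in those labelled Zeb2-deficient, a difference of 1.26 (limma adjusted p = 0.998, or 0.0803 when blocked by array set). Against CD24+ cDCs, the arrays labelled Zeb2-deficient had 4 of 28 signalling genes higher and 2 lower (limma, adjusted p below 0.05). Of 9 DCIR and dectin-2 cluster genes, 7 were higher and 1 was lower. Among all genes 3.25% were higher and 3.92% lower in that comparison.

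Genes were ranked by how closely their pattern over the 11 arrays followed that of a lectin (Pearson's r). This was done for the 4 lectins whose group means spanned at least 1 log2 unit. Predicted genes, clone names, small RNAs, olfactory and vomeronasal receptor genes and antigen receptor segments were left out. Pearson's r compares pattern and not size: Txnl4a, first for Clec12a, differed between the subsets by 0.35, against 2.35 for Clec12a. All genes share these arrays and groups, so each r includes the gap between the subsets. For Clec9a the highest were P3h2 (r = 0.989), P2ry14 (r = 0.987), Cd36 (r = 0.986), Pi4k2a (r = 0.985) and its cluster neighbour Clec1a (r = 0.985). For Clec1a they were Cd36 (r = 0.990), P2ry14 (r = 0.989), Cadm1 (r = 0.988), Fnip2 (r = 0.987) and Fnbp1 (r = 0.986), so that Cd36 and P2ry14 stood in both lists. For Clec12a they were Txnl4a (r = 0.990), Fnip2 and Hepacam2 (both r = 0.987), Slc22a21 (r = 0.985) and Rnf180 (r = 0.984). Clec7a had lower values, led by Ptpn12 (r = 0.970), Aebp2 (r = 0.961), Chn2 (r = 0.960), Il1r2 (r = 0.957) and Ccl9 (r = 0.955).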

How the data were processed

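Values are log2 expression per probe set as deposited by the authors, who used RMA, according to the submitters' processing notes. This method corrects background, quantile-normalizes arrays and summarises probes, which shrinks differences near background; software version and genome build are not given in the sources used here. Of 30177 probe sets, 21789 named 1 gene by the platform annotation; each of 19938 genes was read from its highest-mean probe set. No lectin had more than 1. Tests used limma 3.58.1 (R 4.3.3; 1 fit over 11 arrays, group as the only factor, two-sided, Benjamini-Hochberg over all genes, threshold 0.05), checked on simulated data. Single lectins were also compared by exact permutation of arrays. Where a value is called blocked by array set, the set was a second factor. The lectins, gene lists and array sets were chosen with earlier results of these data known. Named were all 7 lectins, up to 4 genes of each list with the smallest p between the subsets and up to 2 in each other comparison, fixed genes (Syk, Card9, Ptpn6, Pdpn, Klrb1b, Olr1, Zeb2), the 5 nearest patterns and the neighbours; Wdfy4 came in by the second comparison.

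Replicate numbers come from the titles and no label says they pair animals. Deviations from group means of same-numbered CD172a+ arrays correlated at r = 0.442 to 0.68 over 4 pairs, above the 0.1 taken as pairing; pairs with unlike numbers within a set gave 0.496 to 0.699. For CD24+ against control CD172a+ arrays 1 same-numbered pair gave -0.445, and for CD24+ against labelled Zeb2-deficient arrays 1 gave -0.361. The CD24+ numbers were therefore used as pairs only in the replicate-block alternatives, where number 2 joins arrays of both sets. Alternatives were replicate and array-set blocks, fits within a set or on 2 groups, other variance models, array centring, renewed quantile normalization, a low filter, other probe set rules and leaving out each array.

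Promoter windows came from RefSeq. Figures used matplotlib 3.10.9.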

Additional observations from a re-analysis of the deposited data

Results flagged for a closer look

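Clec12a in control CD172a+ cDCs had a sample far from the others: replicate 4 read 8.10, while the other 3 arrays lay between 7.41 and 7.45, a gap of 0.943 of the group's range against a critical value of 0.829. Of 14 groups of 4 arrays examined over the 7 lectins this was the only such value, and chance gives about 1 in 20. The same array was also the highest of its group for Clec9a (7.44) and Clec1b (5.95).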

How the results depend on the processing

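The count of called lectins stayed at 4, 0 and 4 in the 3 comparisons or within 1.5 times of it under the alternatives run, and the directions of Clec9a, Clec12a, Clec1a and Clec7a between the subsets held in all of them. The 2 lectins with an exact permutation p of 0.0286 between the CD172a+ groups became 0 when same-numbered arrays were flipped as pairs (replicate block), where the smallest p is 0.125. With the replicate block on the CD24+ and labelled Zeb2-deficient groups, the Clec7a adjusted p in limma was 0.0673 (1.49). Of 498 single values, 465 kept direction and call, 2 lost and 4 gained the call, and 27 turned, all of them uncalled: 14 on leaving out an array and 13 otherwise. Between the subsets Clec12b was -0.34 within the first set and Clec2d -0.14 with array weights. Between the CD172a+ groups the first set gave -0.06 for Clec12a and 0.17 for Clec1a, the second set -0.05 for Clec2d, and array weights 0.01 for Clec1a and -0.03 for Clec2d. Against CD24+ cDCs the first set gave 0.11 for Clec12b and 0.04 for Clec2d; the replicate block gave -0.02 for Clec1b and 0.13 (all arrays) or 0.14 (these groups) for Clec2d; array weights gave 0.11 for Clec2d. Leaving out an array, the ranges were -0.05 to 0.26 for Clec12b and -0.07 to 0.48 for Clec2d between the subsets; -0.05 to 0.28 for Clec12a, -0.24 to 0.01 for Clec1a and -0.13 to 0.41 for Clec2d between the CD172a+ groups; and -0.01 to 0.45 for Clec1b and -0.37 to 0.21 for Clec2d against CD24+ cDCs. The cause was not tested. The low filter gave no value for Clec12b and Clec1b. Over all genes, the subset count of 1278 was 762 with the replicate block on these groups and 3080 with the set as a block, and that between the CD172a+ groups, 10, was 26 and 29.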
